A study of Homo sapiens with 6 samples.

Results

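The metalloproteases of the MMP, ADAM and ADAMTS families and their tissue inhibitors, the TIMPs, were taken as every row of the expression table whose gene symbol began with MMP, ADAM, ADAMTS or TIMP followed by a digit. This gave 68 of 20824 rows, made up of 23 MMP, 20 ADAM, 21 ADAMTS and 4 TIMP rows. Of these, 58 were coding genes, 4 were antisense RNAs and 6 were pseudogenes. A mean of at least 0.5 RPKM (reads scaled to transcript length and library size) over the libraries was required before a row was tested, and 29 of the 68 rows reached it.

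RNA-Seq was performed on 21NT cells, a human breast cancer line that behaves like ductal carcinoma in situ, stably transfected in a pcDNA3.1 vector with no insert (empty vector, EV), with TBX3iso1 or with TBX3iso2. Each of the 3 lines was a pool of resistant clones kept under G418 in serum-containing medium with insulin, EGF and hydrocortisone, and each gave 2 libraries. The comparisons ask how overexpression of each isoform of the transcription factor TBX3 changed transcript levels relative to the empty vector control, and how the isoforms differed. The sources do not say that the duplicates came from separate cultures, so the p-values measure the spread between these libraries, which may be technical, and effects of a pool of clones and of its insert cannot be told apart.

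The libraries held 43176600 to 54512400 alignments. *TBX3* read 8.52 and 8.24 RPKM in EV, 13.1 and 11.4 in TBX3iso1 and 17.5 and 15.5 in TBX3iso2, in the order the labels give. All 7 epithelial markers checked were above 1 RPKM. Of 8 fibroblast, 6 leukocyte and 5 endothelial markers, 1, 2 and 1 were above 1 RPKM, with *PTPRC*, *ITGAM*, *CDH5*, *VWF*, *DCN* and *PDGFRB* under 0.1. The summed leukocyte markers nevertheless moved with the lines, from 11.4 to 12.7 RPKM in EV to 4.01 to 4.47 in TBX3iso1 and 3.77 to 3.82 in TBX3iso2, with *CD14* the most abundant. The endothelial sum was 7.41 to 7.77, 1.42 to 1.49 and 1.32 to 1.49 RPKM, with *PECAM1* the most abundant, and the fibroblast sum 4.61 to 4.86, 8.20 to 8.79 and 7.16 to 7.58 RPKM, with *COL1A1* the most abundant. The part of these shifts in the results was not tested.

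MMPs cut collagens, laminins and other proteins of the extracellular matrix, and the membrane-type MMPs do so at the cell surface. ADAMs are membrane proteins, several of which release growth factors and receptors from the cell surface, while the secreted ADAMTS enzymes cut proteoglycans and procollagens. TIMPs block the active site of MMPs, and some of them also that of certain ADAM and ADAMTS enzymes. The TIMP2 protein also helps the protein of *MMP14* to activate the protein of *MMP2*. Transcript levels of such enzymes say nothing of activation, which follows secretion or transport to the membrane, and in bulk RNA fewer expressing cells and less RNA per cell cannot be told apart.

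The catalytic centre is the sequence these enzymes share. It is built around 3 zinc-binding histidines, and the open reading frame of 49 of the 54 coding proteases held its 11 codons, found by pattern in GENCODE transcripts of GRCh37. The 5 without it were *ADAM11*, *ADAM22*, *ADAM23*, *ADAM29* and *ADAM32*. The codons are shown for the proteases that the results turn on, 5′ to 3′ on the coding strand, with the histidine codons in capitals and the codon of the catalytic glutamate next to the first of them.
MMP2: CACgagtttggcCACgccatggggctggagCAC
MMP9: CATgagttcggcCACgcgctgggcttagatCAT
MMP14: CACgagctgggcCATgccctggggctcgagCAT
MMP15: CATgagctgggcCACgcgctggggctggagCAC
MMP28: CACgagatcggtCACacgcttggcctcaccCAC
ADAM8: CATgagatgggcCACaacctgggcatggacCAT
ADAM10: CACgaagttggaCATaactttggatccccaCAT
ADAM12: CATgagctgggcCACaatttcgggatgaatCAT
ADAM17: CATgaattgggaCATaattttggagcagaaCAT
ADAM19: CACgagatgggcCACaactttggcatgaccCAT
ADAMTS1: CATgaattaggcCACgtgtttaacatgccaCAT
ADAMTS3: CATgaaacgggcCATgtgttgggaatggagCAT
ADAMTS9: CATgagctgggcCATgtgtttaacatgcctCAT
ADAMTS15: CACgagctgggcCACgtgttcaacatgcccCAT

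These codons lay in 1 exon in every MMP with the motif and were split by an intron in all 18 coding ADAMTS genes, among them *ADAMTS9* (chr3:64636824-64640045, minus strand, exons 8 and 9 of 40). In *MMP14* they lay at chr14:23312492-23312524 on the plus strand, in exon 5 of 10, and in *MMP2* and *MMP9* at chr16:55525739-55525771 and chr20:44641092-44641124, both on the plus strand and in exon 8 of 13. At the eighth codon 44 genes carried glycine. The others were *ADAMTS1*, *ADAMTS4*, *ADAMTS9* and *ADAMTS15*, with asparagine, and *ADAMTS8*, with serine.

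With TBX3iso1 the members moved in both directions. *MMP14* and *MMP9* rose while *MMP2*, *MMP15* and *MMP28* fell, 3 ADAM and 3 ADAMTS genes rose, and among the inhibitors *TIMP2* fell, while *TIMP3* was near 0 RPKM in EV and above 1 in TBX3iso1. The antisense RNA *MMP25-AS1* also fell. In limma on log2(RPKM + 0.1), a member was called at a Benjamini-Hochberg adjusted p under 0.05 over all 12805 genes tested and a fold change over 1.5. By this rule 14 of the 29 members tested (48.3%) were called with TBX3iso1, against 21.5% of all genes. Of these, 9 were higher, where 7.46% of all genes were, and 5 were lower, where 14.1% were. The median log2 difference of the tested members was 0.007, beside -0.051 for all genes.

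With TBX3iso2, *MMP14*, *ADAMTS1* and *TIMP4* rose. *MMP2*, *MMP15*, *MMP28* and the antisense RNAs *MMP24-AS1* and *MMP25-AS1* fell, and no ADAM gene was called. In this comparison 8 of 29 members (27.6%) were called against 21.2% of all genes, 3 of them higher (8.94% of all genes) and 5 lower (12.3%). Their median log2 difference was -0.123, beside -0.002 for all genes. Both comparisons share the EV libraries, so their values are given side by side and their likeness is not counted.

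Set directly against TBX3iso1, TBX3iso2 had 7 of 29 members (24.1%) called, against 6.29% of all genes. All 7 were lower with TBX3iso2, where 2.82% of all genes were, and none was higher, where 3.47% were. The 7 were *MMP9*, *ADAM8*, *ADAM12*, *ADAMTS1*, *ADAMTS9*, *ADAMTS15* and *TIMP3*. This count was lower without either TBX3iso1 library or either EV library, and higher without the first TBX3iso2 library. Without moderation of the variance it was 2, *MMP9* and *TIMP3*, beside 199 of all 12805 genes. With a pseudocount of 1 RPKM it was 4, beside 419 of all 12805 genes, and *ADAM8*, *ADAMTS1* and *ADAMTS15* were not among them. Of the 29 members, 27 had a mean of at least 0.5 RPKM in each line. The other two were *ADAMTS16* and *TIMP3*, and *TIMP3* passed only through TBX3iso1, so that it had to differ and its values are a description. Without it, 13 of 28 members (46.4%) were called with TBX3iso1, 8 of 28 (28.6%) with TBX3iso2 and 6 of 28 (21.4%) between the isoforms.

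**Figure D1:**
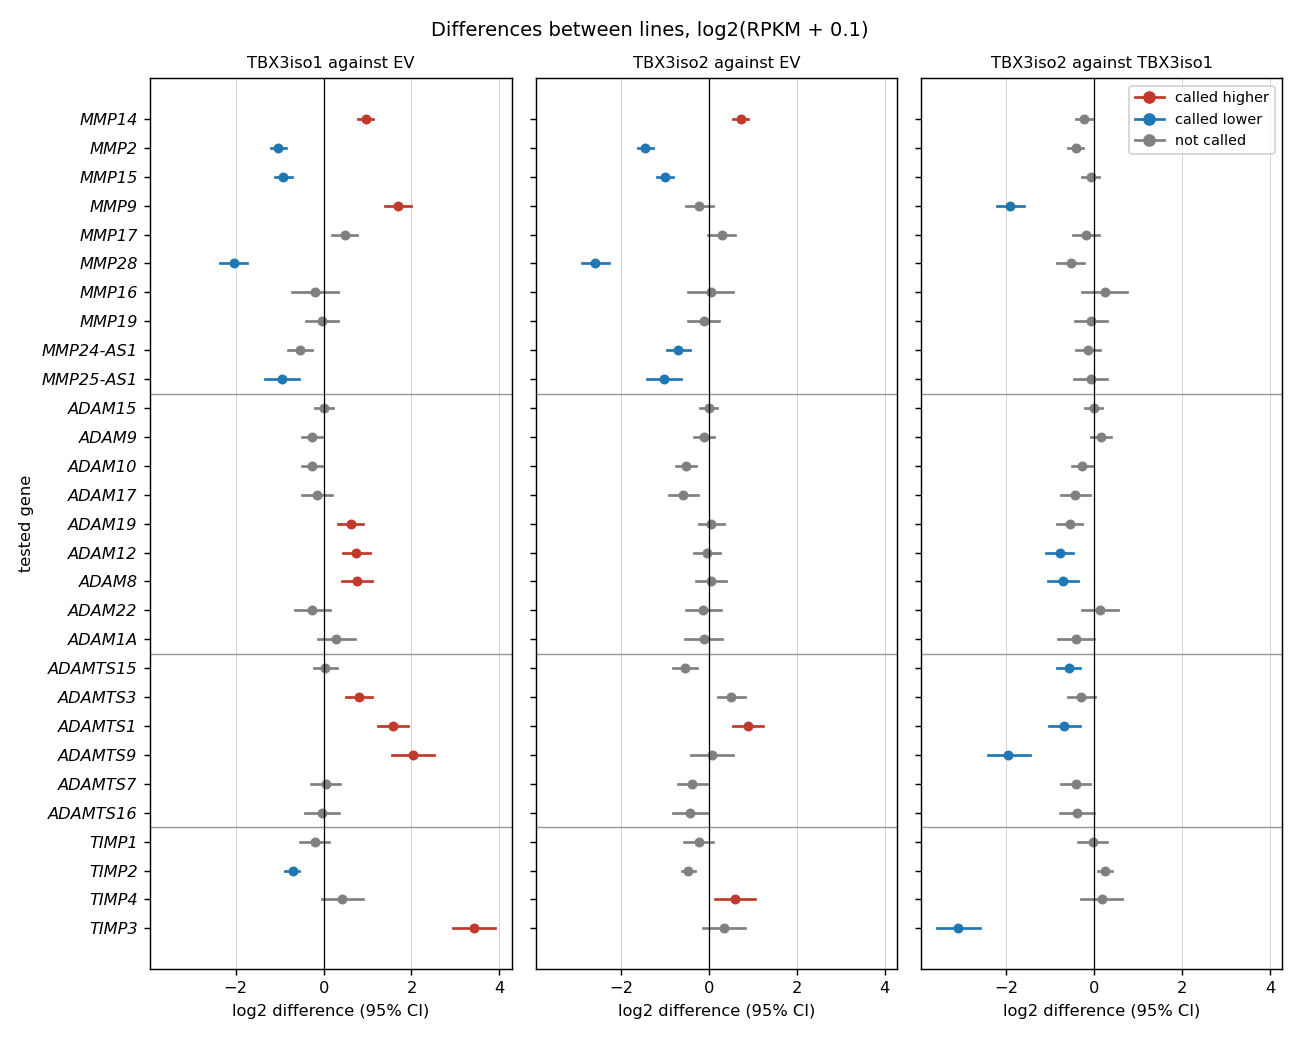
Each row is 1 of the 29 tested members and each panel a comparison. Points are log2 differences of log2(RPKM + 0.1) and bars their 95% confidence intervals from limma, coloured where the gene was called higher or lower. With TBX3iso1 the called genes lie on both sides of 0, from *MMP28* at -2.05 to *ADAMTS9* at 2.03, apart from *TIMP3* at 3.43. In the direct comparison of the isoforms all 7 called genes lie below 0, *TIMP3* among them. *TIMP3* passed the filter on low values only through TBX3iso1, so its points are a description and its bars and colours no test.

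The gelatinases, which cut basement membrane collagen, moved in opposite directions with TBX3iso1. *MMP2* read 30.1 and 29.0 RPKM in EV, 15.0 and 13.9 in TBX3iso1 and 10.7 and 10.8 in TBX3iso2. The lines did not overlap, and both isoforms lay below EV. The log2 level fell by 1.03 with TBX3iso1 (95% CI -1.20 to -0.86, adjusted p = 5.56e-05) and by 1.45 with TBX3iso2 (95% CI -1.62 to -1.28, adjusted p = 1.25e-05). The isoforms themselves differed by -0.42 (adjusted p = 0.0106), short of the fold limit.

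*MMP9* read 2.65 and 2.05 RPKM in EV, 7.64 and 7.88 in TBX3iso1 and 1.99 in both TBX3iso2 libraries. TBX3iso1 lay well above the other lines, and TBX3iso2 lay just below EV. The rise with TBX3iso1 was 1.69 on the log2 scale (SE 0.131, adjusted p = 7.73e-05), a 3.23-fold change. The TBX3iso2 value was -0.22 (95% CI -0.53 to 0.09, adjusted p = 0.207), and the direct difference between isoforms was -1.91 (95% CI -2.22 to -1.61, adjusted p = 0.000228). *MMP9* is also abundant in leukocytes. The leukocyte marker sum was lower in both isoform lines than in EV, but 4 of its 6 markers were under 0.1 RPKM. Whether the shift in this sum bears on *MMP9* was not tested.

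Among the 6 membrane-type MMPs, *MMP14* and *MMP15* were the most abundant and moved in opposite directions. *MMP14*, the main membrane-type collagenase, read 55.2 and 52.7 RPKM in EV, 106 and 104 in TBX3iso1 and 86.7 and 92.1 in TBX3iso2. Every isoform library lay above every EV library. The rise was 0.96 with TBX3iso1 (95% CI 0.79 to 1.13, adjusted p = 7.34e-05) and 0.73 with TBX3iso2 (95% CI 0.55 to 0.90, adjusted p = 0.000251), or 1.95-fold and 1.66-fold. The TBX3iso2 libraries lay below those of TBX3iso1 by 0.23 (95% CI -0.41 to -0.06), which did not pass the test (adjusted p = 0.075).

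*MMP15*, also membrane-bound, read 15.4 and 14.7 RPKM in EV, 7.81 and 8.05 in TBX3iso1 and 7.13 and 7.86 in TBX3iso2. Its log2 level fell by 0.92 with TBX3iso1 (adjusted p = 0.000157) and by 1.00 with TBX3iso2 (adjusted p = 0.00011), and the isoform lines overlapped. The other two that were tested, *MMP16* and *MMP17*, were not called in any comparison and had means of 1.13 and 2.70 RPKM. *MMP17* differed by 0.48 with TBX3iso1 at adjusted p = 0.018 but not by 1.5-fold. *MMP24* and *MMP25* stayed below 0.2 RPKM in every library.

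*MMP28*, the epilysin of epithelia, had the largest fall of any tested member in both comparisons with EV. It read 5.83 and 5.62 RPKM in EV, 1.25 and 1.37 in TBX3iso1 and 0.787 and 0.958 in TBX3iso2. No libraries overlapped between lines. The fall was 2.05 on the log2 scale with TBX3iso1 (95% CI -2.36 to -1.74, adjusted p = 3.57e-05) and 2.59 with TBX3iso2 (95% CI -2.90 to -2.28, adjusted p = 1.25e-05), or 4.14-fold and 6.01-fold. The isoforms differed by -0.54 (adjusted p = 0.0336), which is 1.45-fold and short of the limit. The value was past that limit, at -0.67, without the second TBX3iso2 library. It was -0.59 and called with median-ratio scaling, with quantile normalization and with a pseudocount of 0.01 RPKM.

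The secreted MMPs encoded on chromosome 11 were scarce. All 7 MMP genes of the cluster on chromosome 11 that had a row (*MMP1*, *MMP3*, *MMP7*, *MMP8*, *MMP10*, *MMP12* and *MMP13*, which hold the collagenases, 2 stromelysins, matrilysin and macrophage elastase) were under the filter. *MMP20* and *MMP27*, also of this cluster, had no row. *MMP3*, a stromelysin, lay just outside it with a mean of 0.475 RPKM, from 0.699 and 0.766 RPKM in EV to 0.180 and 0.317 in TBX3iso1 and 0.357 and 0.533 in TBX3iso2. *TIMP3* lay just inside with a mean of 0.521 RPKM. *MMP19* was tested and varied between 0.779 and 0.997 RPKM without a call.

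Of the 4 antisense RNAs in the match, 2 were tested and both were lower with the isoforms. *MMP24-AS1* (MMP24OS in GENCODE, which annotates it as coding) read 14.3 and 14.4 RPKM in EV, 8.85 and 10.9 in TBX3iso1 and 8.25 and 9.44 in TBX3iso2. It fell by 0.70 with TBX3iso2 (adjusted p = 0.00237). With TBX3iso1 its value of -0.54 (adjusted p = 0.00732) missed the fold limit, and it was -0.69 and called without the second TBX3iso1 library. *MMP25-AS1* read 1.59 and 1.94 RPKM in EV, 0.964 and 0.776 in TBX3iso1 and 0.842 and 0.782 in TBX3iso2, and fell by 0.94 (adjusted p = 0.00305) and 1.03 (adjusted p = 0.00205). The TBX3iso2 call of *MMP24-AS1* was lost without moderation, and the TBX3iso1 call of *MMP25-AS1* with a pseudocount of 1 RPKM, at -0.56. The libraries were stranded but whether counting used strand is not given in the sources used here. The sense partners *MMP24* and *MMP25* were at most 0.0976 and 0.172 RPKM, whereas *PROCR*, which overlaps *MMP24-AS1* on the opposite strand, lay between 5.72 and 13.2 RPKM.

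**Figure D2:**
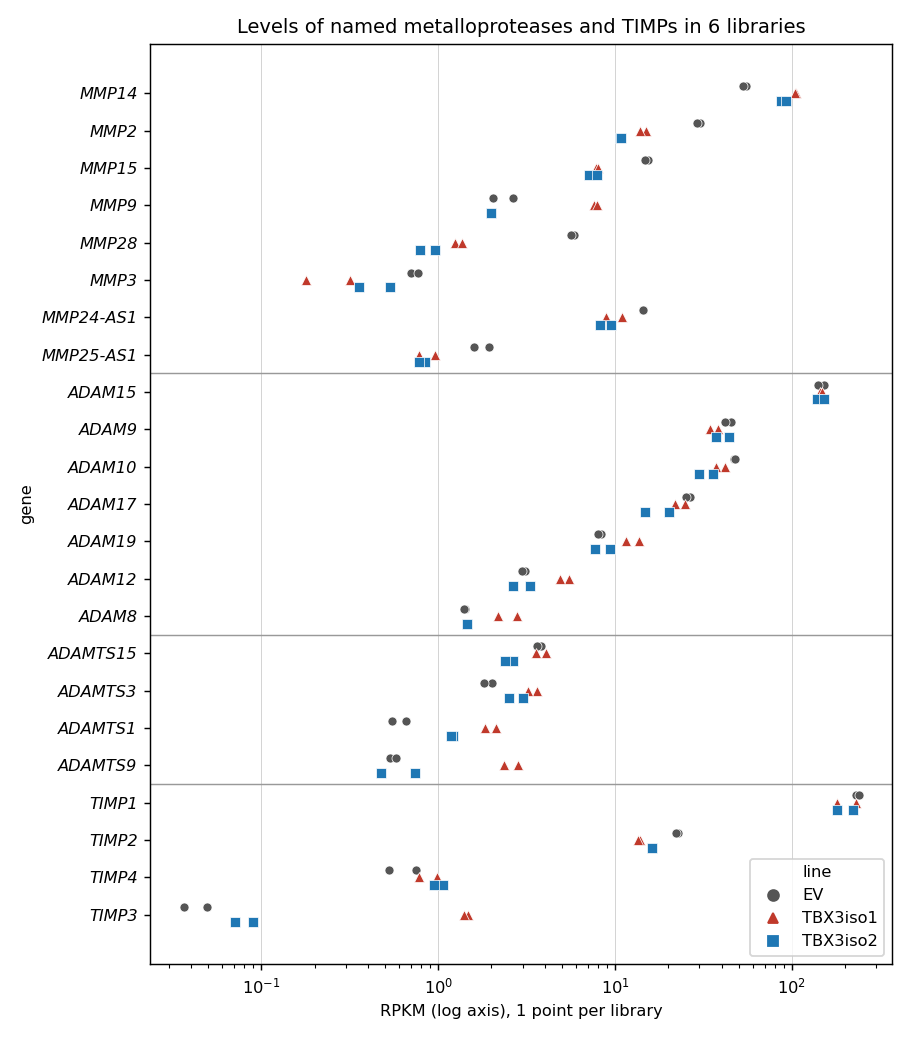
RPKM on a log axis for the 23 members named by rule, with 1 point per library coloured by line and horizontal lines between families. *TIMP1*, *ADAM15* and *MMP14* lie highest, *TIMP3* spans from 0.0366 RPKM in EV to 1.48 in TBX3iso1, and *MMP2*, *MMP15* and *MMP28* lie below EV in all 4 isoform libraries.

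The ADAM family was split between abundant sheddases that were not called and scarcer members that rose with TBX3iso1. *ADAM15*, which binds integrins through its disintegrin domain, read 151 and 140 RPKM in EV, 145 and 148 in TBX3iso1 and 139 and 151 in TBX3iso2. All lines overlapped, with 95% intervals of -0.19 to 0.21 and -0.21 to 0.19 for the log2 differences from EV. *ADAM9*, a widely expressed family member on chromosome 8, read 45.5 and 41.9, 38.1 and 34.6, and 43.8 and 37.4 RPKM in the same order, and was not called either. Together with *ADAM10* and *ADAM17* these genes held 91.8% to 95.4% of the summed RPKM of the ADAM genes with the zinc motif.

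*ADAM10*, the main sheddase of Notch receptors and cadherins, read 46.8 and 47.7 RPKM in EV, 41.6 and 37.3 in TBX3iso1 and 35.7 and 30.0 in TBX3iso2. Each line lay below the one before without overlap. The TBX3iso2 value of -0.53 (95% CI -0.76 to -0.30, adjusted p = 0.00413) passed the p limit but was 1.44-fold. *ADAM17*, the sheddase of TNF and EGF-receptor ligands, read 26.7 and 25.2, 24.9 and 21.7, and 20.2 and 14.8 RPKM. Its TBX3iso2 value of -0.58 (95% CI -0.92 to -0.25, adjusted p = 0.013) lay just below the fold limit. Without the first TBX3iso2 library *ADAM10* was at -0.66 and *ADAM17* at -0.81 against EV, and both were called. *ADAM17* was then also called against TBX3iso1, at -0.65. It overlaps *IAH1*, on the opposite strand, which lay between 36.6 and 51.4 RPKM.

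The 3 ADAM genes called were *ADAM12*, *ADAM19* and *ADAM8*, each higher with TBX3iso1, and none was called with TBX3iso2. *ADAM12*, a meltrin first described in muscle fusion, read 3.11 and 2.98 RPKM in EV, 5.49 and 4.87 in TBX3iso1 and 3.30 and 2.63 in TBX3iso2. Its rise was 0.75 (95% CI 0.44 to 1.05, adjusted p = 0.00311), while the TBX3iso2 value was -0.04 (adjusted p = 0.805) and the isoforms differed by -0.79 (95% CI -1.09 to -0.48, adjusted p = 0.00832).

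*ADAM19*, the other meltrin called, read 8.33 and 8.01 RPKM in EV, 13.7 and 11.5 in TBX3iso1 and 9.33 and 7.74 in TBX3iso2. It rose by 0.61 (95% CI 0.33 to 0.90, adjusted p = 0.00514), a 1.53-fold change that fell to 0.49 and was not called without the first TBX3iso1 library. Its difference between isoforms was -0.56 (adjusted p = 0.022) and under the fold limit. It passed that limit at -0.69 without the second TBX3iso1 library and at -0.69 without the first TBX3iso2 library. With median-ratio scaling and with quantile normalization it was -0.61 and called. *ADAM8*, best known from leukocytes, read 1.41 and 1.40, 2.80 and 2.17, and 1.46 and 1.45 RPKM. It rose by 0.77 (95% CI 0.43 to 1.11, adjusted p = 0.00432) with TBX3iso1. The isoforms differed by -0.72 (adjusted p = 0.017), a call that was lost without the first TBX3iso1 library, at -0.55, and without either EV library, at an unchanged -0.72. With an ordinary linear model in place of moderation none of these 3 rises was called, and with a pseudocount of 1 RPKM those of *ADAM19* and *ADAM8* were not.

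Of 5 coding ADAM genes without the zinc motif, only *ADAM22* was tested, at a mean of 0.727 RPKM and with no call. The pseudogene *ADAM1A*, at 0.787 to 1.22 RPKM, was not called in any comparison.

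ADAMTS genes were low, and 3 of the 6 tested rose with TBX3iso1. These were the proteoglycanases *ADAMTS1* and *ADAMTS9* and the procollagen N-proteinase *ADAMTS3*. The others, *ADAMTS7*, *ADAMTS15* and *ADAMTS16*, did not pass the test. *ADAMTS9* read 0.535 and 0.580 RPKM in EV, 2.83 and 2.35 in TBX3iso1 and 0.735 and 0.472 in TBX3iso2. Only the TBX3iso1 libraries stood apart. The rise was 2.03 (95% CI 1.55 to 2.51, adjusted p = 0.000263) and the difference between isoforms -1.95 (95% CI -2.43 to -1.47, adjusted p = 0.00148), while the TBX3iso2 value was 0.07 (adjusted p = 0.795).

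*ADAMTS1* read 0.656 and 0.549 RPKM in EV, 2.12 and 1.85 in TBX3iso1 and 1.21 and 1.19 in TBX3iso2, so that the lines did not overlap. It rose by 1.57 with TBX3iso1 (adjusted p = 0.000185) and by 0.89 with TBX3iso2 (adjusted p = 0.00238). The TBX3iso2 rise was not called with a pseudocount of 1 RPKM, at 0.46. The isoforms differed by -0.68 (adjusted p = 0.0229). That call was lost without the first TBX3iso1 library at -0.58, without the second at -0.77 and without the second EV library at -0.68.

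*ADAMTS3*, which trims procollagens and the lymphatic growth factor VEGF-C, read 2.01 and 1.81 RPKM in EV, 3.62 and 3.22 in TBX3iso1 and 3.00 and 2.53 in TBX3iso2. It rose by 0.81 with TBX3iso1 (95% CI 0.50 to 1.11, adjusted p = 0.00215). The TBX3iso2 value of 0.51 (adjusted p = 0.0155) was short of the fold limit, and it was 0.63 and called without the second TBX3iso2 library. *ADAMTS15*, another proteoglycanase, read 3.82 and 3.60, 4.08 and 3.55, and 2.64 and 2.37 RPKM. It was lowest in TBX3iso2, where it differed from TBX3iso1 by -0.59 (95% CI -0.85 to -0.32, adjusted p = 0.0157), just past the fold limit. This call was lost without the first TBX3iso1 library at -0.49, without the second TBX3iso2 library at -0.51, and without either EV library at an unchanged -0.59. Against EV it was -0.55 (adjusted p = 0.00673) and under the limit, but was called without the second EV library, at -0.59, and without the first TBX3iso2 library, at -0.62.

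The 4 TIMPs did not move together. *TIMP1* (chrX:47441807-47446188, plus strand), a secreted inhibitor of most soluble MMPs, was the most abundant member at 230 and 239 RPKM in EV, 181 and 229 in TBX3iso1 and 180 and 221 in TBX3iso2. It differed more between duplicates of an isoform line than the lines differed on average, with log2 values of -0.20 (95% CI -0.53 to 0.13, adjusted p = 0.272) and -0.23 (95% CI -0.56 to 0.10, adjusted p = 0.218). *TIMP2* (chr17:76849059-76921469, minus strand) read 22.6 and 22.1 RPKM in EV, 13.8 and 13.5 in TBX3iso1 and 16.1 and 16.2 in TBX3iso2. All lines were separate, with EV highest. It fell by 0.71 with TBX3iso1 (95% CI -0.87 to -0.55, adjusted p = 0.000199). With TBX3iso2 it was at -0.47 (95% CI -0.62 to -0.31, adjusted p = 0.00133), a 1.38-fold difference under the limit.

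*TIMP3* (chr22:33197691-33259028, plus strand), a matrix-bound inhibitor that also blocks ADAM17 and ADAMTS enzymes, read 0.0495 and 0.0366 RPKM in EV, 1.48 and 1.40 in TBX3iso1 and 0.0709 and 0.0900 in TBX3iso2. It was near 0 in every library outside TBX3iso1. The fitted log2 differences from EV were 3.43 with TBX3iso1 and 0.34 with TBX3iso2, and that between the isoforms was -3.09. They depend on the pseudocount at such levels, and no test is given because the gene entered the fit only through TBX3iso1. *TIMP4* (chr3:12194568-12200412, minus strand), a more tissue-restricted inhibitor, read 0.748 and 0.527, 0.780 and 0.988, and 1.06 and 0.942 RPKM. It was called higher with TBX3iso2 at 0.59 (95% CI 0.13 to 1.06, adjusted p = 0.0437). The call was lost without the second EV library at 0.37, without the first TBX3iso2 library at 0.52 and without the second at 0.67, and also with no filter on low values, a pseudocount of 1 RPKM or no moderation.

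Because RPKM is a level per length, members can be summed. The 20 coding MMP genes summed to 116 and 111 RPKM in EV, 145 and 142 in TBX3iso1 and 114 and 120 in TBX3iso2. TBX3iso1 stood above EV, and TBX3iso2 overlapped it. Without *MMP14* the sum ran the other way, at 61.2 and 58.2 RPKM in EV, 38.7 and 37.5 in TBX3iso1 and 27.2 and 27.8 in TBX3iso2. *MMP14* made up 47.4% and 47.5% of the sum in EV, 73.3% and 73.5% in TBX3iso1 and 76.1% and 76.8% in TBX3iso2.

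The TIMP sum was 253 and 261 RPKM in EV, 197 and 245 in TBX3iso1 and 197 and 239 in TBX3iso2, of which *TIMP1* gave 90.8% to 93.5%. Both isoform lines lay below EV, by less than their own duplicates differed. The ratio of the MMP to the TIMP sum was 0.459 and 0.425 in EV, 0.735 and 0.579 in TBX3iso1 and 0.577 and 0.502 in TBX3iso2. It was higher in every isoform library than in EV, by 0.56 and 0.29 on the log2 scale. These sums rest on a few genes and are given as a description, with no test.

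**Figure D3:**
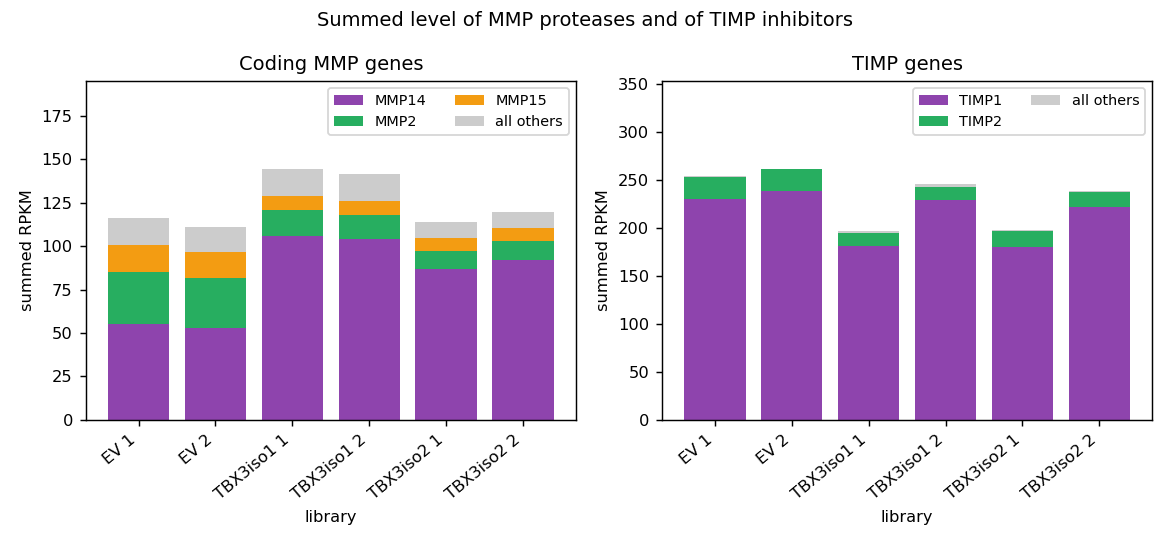
Summed RPKM of the 20 coding MMP genes (left) and the 4 TIMPs (right) in each library, with the most abundant members as coloured segments of bars that start at 0. The *MMP14* segment grows from 55.2 and 52.7 RPKM in EV to between 86.7 and 106 in the isoform libraries while those of *MMP2* and *MMP15* shrink, and *TIMP1* fills most of each TIMP bar.

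Ratios of pairs of members were not planned. They follow from the levels of single genes given above and are a description, with no test. *MMP14* exceeded *MMP2* 1.83-fold and 1.82-fold in EV, 7.07-fold and 7.50-fold in TBX3iso1 and 8.10-fold and 8.52-fold in TBX3iso2. Its ratio to *TIMP2* was 2.44 and 2.38, then 7.68 and 7.71, then 5.37 and 5.68. Both ratios were separate in all lines. *MMP9* was 1.15% and 0.859% of *TIMP1* in EV, 4.23% and 3.44% in TBX3iso1 and 1.10% and 0.898% in TBX3iso2, so that EV and TBX3iso2 overlapped.

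**Figure D4:**
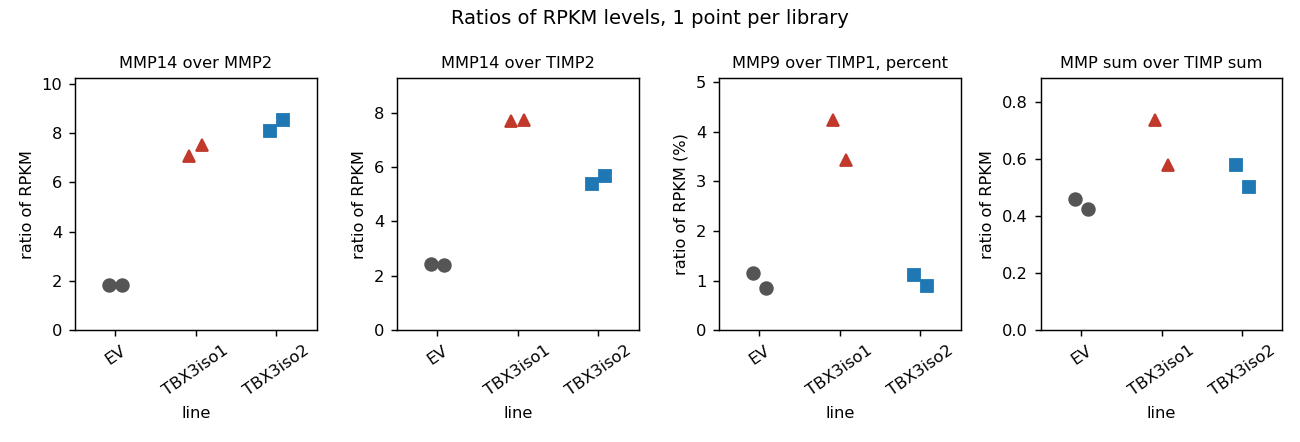
Ratios of RPKM in each library, by line, on axes that start at 0. *MMP14* over *MMP2* and over *TIMP2* is higher in both isoform lines than in EV, whereas *MMP9* over *TIMP1* is higher only in TBX3iso1, at 3.44% and 4.23%.

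The summed ADAM genes with the motif lay at 283 and 268 RPKM in EV, 272 and 260 in TBX3iso1 and 253 and 245 in TBX3iso2. ADAMTS genes summed to 10.96 and 10.2 RPKM in EV, 16.9 and 14.6 in TBX3iso1 and 11.3 and 9.70 in TBX3iso2, highest in TBX3iso1. By family, the median log2 difference of the tested coding genes with TBX3iso1 was -0.12 for 8 MMP, -0.07 for 8 ADAM, 0.43 for 6 ADAMTS and 0.11 for 4 TIMP genes. With TBX3iso2 it was -0.17, -0.08, -0.15 and 0.05. The TIMP medians include *TIMP3*, which entered the fit only through TBX3iso1, so they are not a summary of the inhibitors. Apart from it, *TIMP2*, *TIMP1* and *TIMP4* were at -0.707, -0.203 and 0.425 with TBX3iso1. With TBX3iso2 they were at -0.466, -0.231 and 0.592.

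Other genes that act on these enzymes were counted from a fixed list of 25 regulators, of which 20 were tested. Of these, 2 rose and 2 fell with TBX3iso1, while 1 rose and 4 fell with TBX3iso2. The share called was 20% and 25%, near the 21.5% and 21.2% over all genes. Between the isoforms 4 of the 20 (20%) were called, all lower with TBX3iso2, against 6.29% of all genes called and 2.82% lower. *FURIN*, which activates the protein of *MMP14*, was not called and had means of 56.7 RPKM in EV, 60.5 in TBX3iso1 and 48.0 in TBX3iso2. *PCSK6*, also on the list, had means of 0.936, 2.51 and 1.24 RPKM. It rose by 1.33 with TBX3iso1 (adjusted p = 0.000487), was not called with TBX3iso2, and differed between the isoforms by -0.96 (adjusted p = 0.00727). *RECK*, a membrane inhibitor of MMPs, stayed near or under the filter at means of 0.375, 0.503 and 0.476 RPKM. *SPOCK1*, a testican proteoglycan, rose from 1.49 to 3.90 RPKM with TBX3iso1 (adjusted p = 0.000197) and was 0.318 RPKM with TBX3iso2, a fall of 1.92 on the log2 scale (adjusted p = 4.15e-05). *LRP1*, a receptor that clears MMPs and TIMPs, fell by 1.80 with TBX3iso2 (adjusted p = 0.000284) and was at -0.04 with TBX3iso1 (adjusted p = 0.895). The ADAMTS-like genes *ADAMTSL4* and *PAPLN* fell with both isoforms, *ADAMTSL4* by 2.01 and 1.59.

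Among 25 matrix substrates, 15 were tested. Calls with TBX3iso1 numbered 6 up and 4 down, and calls with TBX3iso2 numbered 5 up and 4 down. They make up 66.7% and 60% of the tested list, against 21.5% and 21.2% of all genes. *LAMB3*, a laminin chain of epithelial basement membranes, had means of 108 RPKM in EV, 204 in TBX3iso1 and 205 in TBX3iso2, and rose by 0.92 with TBX3iso1 (adjusted p = 0.000208) and by 0.92 with TBX3iso2 (adjusted p = 0.000204). *LAMA3*, another laminin chain, rose by 1.20 and 0.74. The small proteoglycan *BGN* fell by 3.07 with TBX3iso1 and fell by 2.90 with TBX3iso2.

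Of 31 surface proteins shed by ADAM10 or ADAM17, 27 were tested. TBX3iso1 had 3 of them up and 3 down, and TBX3iso2 had 6 up and 3 down. That is 22.2% and 33.3% of those tested, beside 21.5% and 21.2% of all genes. The EGF-receptor ligands *EREG*, *HBEGF* and *EPGN* had higher means with TBX3iso2 (65.5, 17.9 and 100.1 RPKM) than in EV (36.8, 8.14 and 38.9 RPKM), and each passed the test. The TBX3iso2 duplicates of *EREG* and *EPGN* were far apart, with SDs of 14.4 and 17.4 RPKM. *AREG* was also called, at 0.62, whereas *TGFA* (0.50), *BTC* (0.43) and *EGF* (-0.14) were not. *EREG* fell by 0.94 with TBX3iso1 (adjusted p = 0.00116), and the isoforms differed by 1.75 (adjusted p = 0.000362). *EPGN* and *TGFA* were called higher with TBX3iso1, at 0.59 and 0.66, and *AREG*, *HBEGF*, *BTC* and *EGF* were not called there.

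The 39 members under the filter comprised 21 that stayed below 0.1 RPKM in every library and 18 that reached it in at least 1. When no filter was applied, 5 of the 39 were called with TBX3iso1 and 7 with TBX3iso2. Over all 20824 genes the shares called were 16.4% and 16.3%, but those genes include the abundant ones, so the sets are unlike. These low genes were chosen after their values were seen. *ADAMTS6* read 0.184 and 0.142 RPKM in EV, 0.559 and 0.486 in TBX3iso1 and 0.750 and 0.631 in TBX3iso2. *ADAMTS13*, which cuts von Willebrand factor, ran the other way, from 0.447 and 0.485 RPKM in EV to 0.149 and 0.158, and 0.134 and 0.0939. *ADAMTS14* and *MMP11* read 0.0980 to 0.279 and 0.255 to 0.538 RPKM over all libraries. With *MMP3* these are the 5 called with TBX3iso1.

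Some members share sequence with near-identical copies, and their values are uncertain. *MMP23B* ran from 6.21e-09 to 0.192 RPKM and the pseudogene *MMP23A* from 0.00506 to 0.127. *ADAM21P1* fell as low as 1.25e-41 RPKM, a value that whole reads cannot give. *ADAMTS7*, at 0.940 to 1.47 RPKM, has the pseudogene *ADAMTS7P1*, which did not exceed 0.0127 RPKM. No call above rests on these genes.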

How the data were processed

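Stranded mRNA libraries were sequenced with paired 51-base reads. The authors' notes name TopHat, Partek and hg19, without versions, and their counting of strand is not given in the sources used here. The deposited table holds RPKM values for each library, scaled by the authors to reads and transcript length, with the number of alignments per library. If those totals are the denominator, 1 RPKM stands for 43.2 to 54.5 alignments per kilobase of transcript. Raw counts were not used here.

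From these values, limma 3.58.1 in R 4.3.3 was fitted to log2(RPKM + 0.1) over all 6 libraries, with 1 mean per line and empirical Bayes moderation with a trend. Only genes averaging 0.5 RPKM or more were kept, and Benjamini-Hochberg adjustment was made over all 12805 of them. The fold change is on the log2(RPKM + 0.1) scale, which understates changes of low genes. The fit was tested on simulated data. Sequences and places come from GRCh37 with GENCODE v44lift37. The zinc motif was sought in GENCODE reading frames, not in RefSeq proteins as planned.

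The members and gene lists were chosen with earlier results of these data known. Named were all members called in any comparison, the TIMPs, *MMP2*, *MMP9*, *MMP14*, *ADAM10*, *ADAM17*, the 3 most abundant of each protease family, members of opposite direction and those next to the filter. Alternatives were other pseudocounts, filters and scalings, only the lines compared, a replicate block, no moderation, and leaving out each library.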

Additional observations from a re-analysis of the deposited data

Results flagged for a closer look

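The 7 members whose effect differed between the isoforms were each lower with TBX3iso2 than with TBX3iso1 by the limma contrast of the isoforms, in which EV cancels. On the log2 scale *ADAMTS9* differed by -1.95, *MMP9* by -1.91, *ADAM12* by -0.79, *ADAM8* by -0.72, *ADAMTS1* by -0.68 and *ADAMTS15* by -0.59. *TIMP3* differed by -3.09, but it passed the filter on low values only through TBX3iso1, where it is high, so this value is a description. In *TIMP3*, *ADAMTS9*, *MMP9*, *ADAM12* and *ADAM8* the TBX3iso1 line stood apart from both others. EV and TBX3iso2 overlapped in *ADAMTS9* and *ADAM12* but not in *TIMP3*, *MMP9* and *ADAM8*. All lines were also separate in *ADAMTS1*, and in *ADAMTS15* TBX3iso2 stood below both others.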

How the results depend on the processing

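No called direction of a named gene reversed in any of the alternatives, and the median of all genes moved by under 0.1 with every scaling. The number of members called with TBX3iso1 (14) was 9 with a filter at a mean of 2 RPKM and 19 without a filter. It was 11 with a pseudocount of 1 RPKM and 11 without moderation. With TBX3iso2 (8) it was 14 without a filter and 5 with the filter at 2 RPKM. A pseudocount of 1 RPKM or no moderation gave 6. Between the isoforms (7) it was 4 with a pseudocount of 1 RPKM, 3 with the filter at 2 RPKM and 2 without moderation. It was 5 without a filter, beside 766 of all 20824 genes, and 5 with only the lines compared, beside 627 of all 12805. Median-ratio scaling and quantile normalization each gave 9, with *MMP28* and *ADAM19* added, beside 791 and 786 of all 12805 genes. Each count also moved when single libraries were left out. Calls over all genes were 1847, 1894 and 504 of 10313 with the filter at 2 RPKM. They were 1812, 1870 and 419 of 12805 with the pseudocount of 1 RPKM, and 3416 and 3395 of 20824 without a filter. The stricter filter tests fewer members. For the median log2 difference, TBX3iso1 (0.007) gave -0.155 with the filter at 2 RPKM and 0.216 with quantile normalization, and the isoform contrast (-0.298) gave -0.099 without a filter. The ranges when a library was left out were -0.032 to 0.039, -0.222 to -0.036 and -0.413 to -0.223. Over all genes, calls without moderation were 1890, 1963 and 199 in place of 2757, 2720 and 805. For the log2 ratio of MMP to TIMP sums, alternatives chosen after seeing the data ran from 0.390 to 0.735 and from 0.186 to 0.387. The sources do not say what same-numbered libraries share. Their deviations from the line means correlated at 0.220, 0.114 and 0.499 over genes. With a replicate block the members called stayed at 14, 8 and 7, and calls over all genes were 2838, 2795 and 900. Each line has only 2 libraries, and members averaging under 0.5 RPKM were not tested.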
